A study of Mus musculus with 17 samples.

Results

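Collagens and the proteins that assemble, bind, crosslink or cut the extracellular matrix were examined in whole kidneys of diabetic mice with and without dapagliflozin. The gene set was defined by symbol. It held every collagen chain gene of the deposited table (44 genes) and 30 further genes for laminins, nidogens, matrix proteoglycans and glycoproteins, lysyl oxidases, matrix proteases with their inhibitors, and genes of contractile and mesenchymal cells. These 74 matrix genes were drawn from 22558 genes in all. No measured value was used to choose them, although results of the same data were already known when they were chosen.

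RNA was sequenced from the kidneys of 17 male mice, 1 library per mouse. The Ctrl group held 5 C57BL/6 mice (genotype WT) given saline. The Case group held 6 db/db mice of the strain BKS.Cg-Dock7m +/+ Leprdb/J, which carry the Lepr db mutation of the leptin receptor and become obese and diabetic, also given saline. The Dapa group held 6 db/db mice of that strain that received dapagliflozin, which blocks glucose uptake by SGLT2 in the proximal tubule. The daily dose was 1 mg/kg, treatment lasted 6 weeks, and the mice were 8 weeks old when it began. The receptor mutation was carried in every cell of the db/db mice, and strain background, genotype and diabetes cannot be told apart in any comparison with Ctrl. In the whole kidney, fewer cells of a type and less RNA per cell cannot be told apart either.

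Collagens are trimers of alpha chains that fall into families. Fibrillar collagens form the cables of the interstitium, collagen IV forms the sheet of basement membranes, and beaded filament, anchoring and fibril-associated collagens link these structures to one another. The glomerular basement membrane carries a network of the alpha3, alpha4 and alpha5 chains of collagen IV together with the laminin of alpha5, beta2 and gamma1 chains, whereas alpha1 and alpha2 chains occur in most other basement membranes. Expansion of the mesangial matrix, thickening of the glomerular basement membrane and, later, interstitial fibrosis are known lesions of diabetic kidney disease, and TIMPs, MMPs and ADAMTS proteases control how matrix is broken down.

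The libraries held 13039535 to 17779635 counts, and the matrix genes took 0.526% to 0.559% of them in Ctrl, 0.391% to 0.534% in Case and 0.421% to 0.556% in Dapa mice. Mitochondrial genes took 17.9% to 20.4% of counts in Ctrl, 19.8% to 27.3% in Case and 19.7% to 27.6% in Dapa mice, and of the other counts the matrix genes took 0.661% to 0.697%, 0.491% to 0.695% and 0.564% to 0.717%. Timp3 alone supplied 44.1% to 59.5% of these matrix counts in Ctrl, 28.6% to 44.6% in Case and 30.1% to 39.5% in Dapa mice. Some libraries stood apart. Among 60 matrix genes tested in Case against Ctrl, Case 1 was the lowest Case mouse for 30, Case 3 the highest for 29, and Dapa 9 the lowest Dapa mouse for 39. In 7 libraries (Ctrl 1, 3 and 4, Case 1, Dapa 10, 11 and 12), the FPKM of 3 genes whose entries run over 2 lines did not follow their counts, and the reason is not given in the sources used here. Kidney tubule markers were abundant in every library, with 1399 to 2563 summed FPKM for 8 proximal tubule markers, and skeletal muscle markers summed to at most 0.982 FPKM. Adipocyte markers summed to 92.8 FPKM in Ctrl 3, against 6.51 to 12.8 in the other Ctrl mice and 3.73 to 31.5 in db/db mice, and Ctrl 3 was also the highest Ctrl mouse for Acta2, Tagln, Postn, Lum and Col5a2.

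Levels are given as FPKM, which is per gene length and can be compared between genes. FPKM was scaled by the library total and the fitted fold changes by TMM, so that the 2 can differ. For Col4a3, the means were 37.04 FPKM in Dapa and 37.02 FPKM in Ctrl mice, with a fitted log2 fold change of -0.11. Overlap between groups was judged on FPKM, and narrow gaps depend on this scaling. By the mean of the Ctrl mice, Timp3 was the most abundant matrix gene at 315 ± 41.2 FPKM (mean ± SD, n = 5). Col4a3 (37 ± 3.64), Col4a4 (30.3 ± 2.51), Col4a1 (25.2 ± 4.84) and Col4a2 (18.6 ± 3.27 FPKM) came next. Sparc (16.1 ± 2.85), Ctgf (16 ± 5.31), Acta2 (12.9 ± 6.39), Lama5 (11.6 ± 1.81), Lamb1 (10.6 ± 1.61), Col27a1 (10.2 ± 1.78) and Agrn (10.1 ± 0.854 FPKM) followed, and neighbours in this second order lay within 1 SD of one another. The fibrillar collagens of scar tissue were low, with 0.892 ± 0.408 FPKM for Col1a1, 1.46 ± 0.473 FPKM for Col1a2 and 1.71 ± 0.385 FPKM for Col3a1.

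The first comparison asked how the matrix genes of the saline-treated db/db kidney differed from those of the C57BL/6 kidney. Most matrix genes had a log2 fold change above 0, and a smaller number passed the test in each direction. Genes for the collagen-cutting protease Mmp14, the aggrecanase Adamts4, the crosslinking enzyme Lox, the laminin chain Lama5, Sparc and several minor collagens (Col4a6, Col6a1, Col12a1, Col13a1) were higher in Case mice, whereas Timp3, Col4a3, Lama1, Col16a1, Col19a1 and Col6a6 were lower. The classic fibrosis genes Col1a1, Col1a2, Col3a1, Fn1, Acta2 and Ctgf did not pass the test. Of 60 matrix genes with enough counts, 15 passed q under 0.05 (edgeR quasi-likelihood test, Benjamini-Hochberg adjusted over all genes), which is 25%, against 13.0% of the 14582 genes tested. In the upward direction, 9 passed against a background of 6.09%, and 6 passed in the downward direction against 6.91%. The median log2 fold change of the 60 genes was 0.28, beside 0.03 over all genes tested, and 49 of 60 were above 0, beside 7912 of 14582. With the added demand of a fold above 2 between mean FPKM, 8 matrix genes passed, against a background of 3.79%. Only 4 matrix genes (Mmp14, Timp3, Col19a1 and Col6a6) showed no overlap between the 2 groups, where 8.43% of all genes tested did so.

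The calls of this comparison rested in part on single mice. Of the 15 genes, 5 kept q under 0.05 whichever mouse was left out, namely Timp3, Col4a3, Col16a1, Col19a1 and Mmp14. The count was 6 without Ctrl 1, 7 without Ctrl 2 or Ctrl 3, 9 without Case 2, 10 without Case 3, Case 4, Case 6 or Ctrl 5, 14 without Ctrl 4, 16 without Case 5 and 19 without Case 1. The share of all genes called fell as well, to 6.80% without Ctrl 3, 7.80% without Ctrl 2 and 7.87% without Ctrl 1, and lay at 7.62% to 14.9% without each other mouse. With a term for the 7 libraries whose 2-line entries did not follow their counts, 7 matrix genes passed (background 8.36%). Adamts4, Col12a1, Col4a6, Col6a1, Lama1, Lama5, Lox and Sparc lost their calls there (q from 0.072 for Col4a6 to 0.20 for Col6a1). Calls were also lost with limma on 1 or both log scales for Adamts4, Col4a6, Col6a1, Lama1 and Lama5, without the filter on low counts for Col6a1, Lama5 and Sparc, with median ratio scaling for Lama5 and in the fit of all 3 groups for Col4a6, with q from 0.0503 to 0.10. On the 2 Ctrl and 5 Case mice outside those libraries 1 gene passed, Col19a1 (background 1.70%).

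The plot of fold changes sets all 60 tested genes side by side by role, for Case and for Dapa mice.

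**Figure D1:**
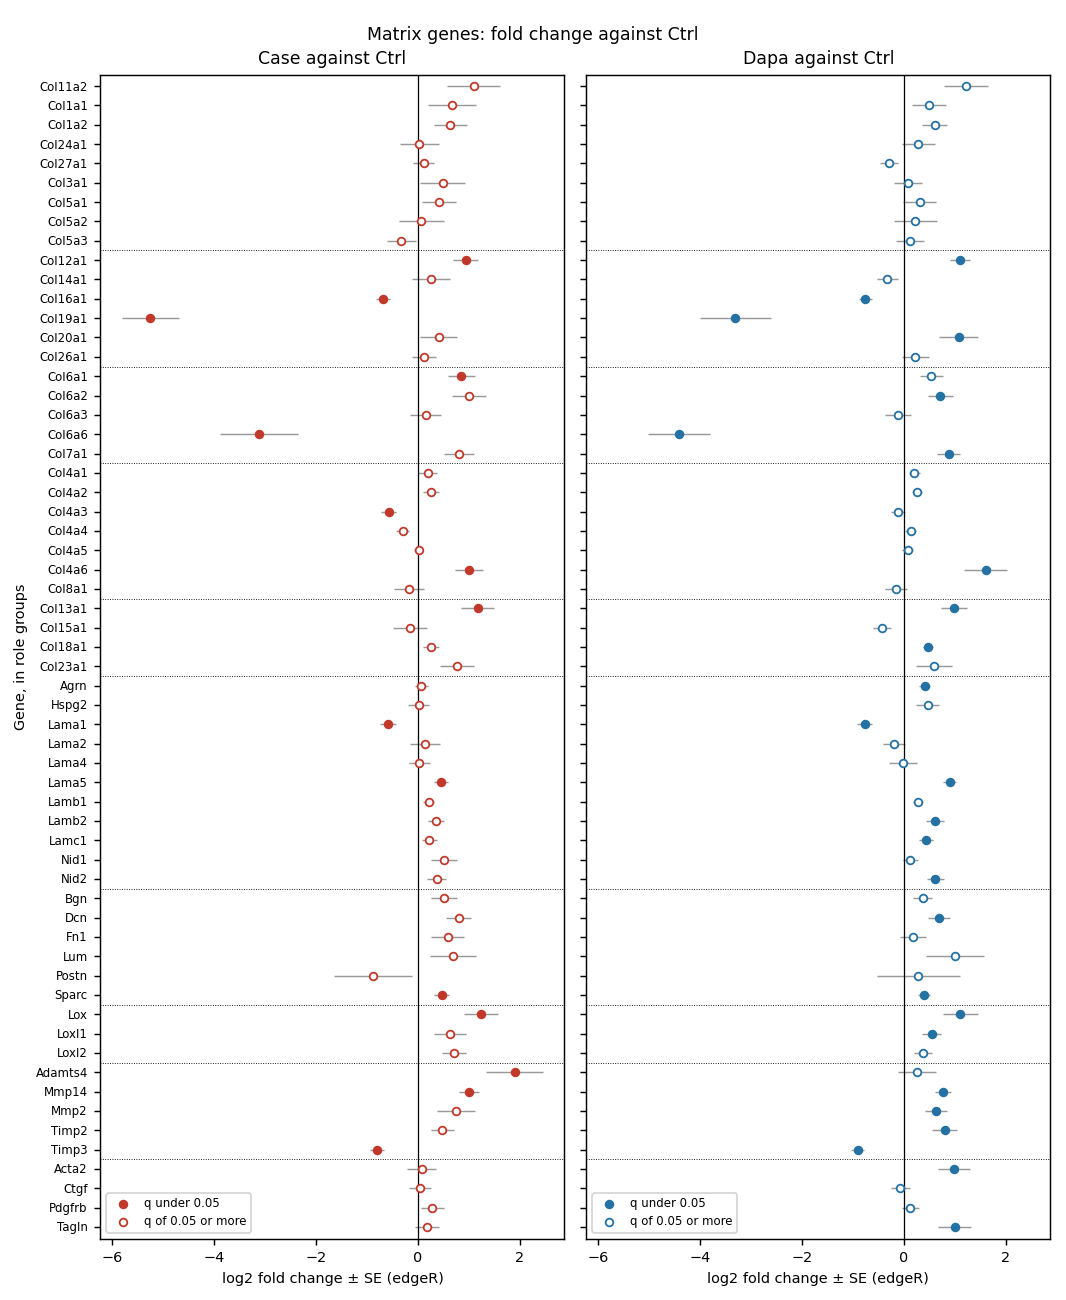
Log2 fold change ± SE (edgeR) of the 60 tested matrix genes, Case against Ctrl on the left and Dapa against Ctrl on the right, with filled points for q under 0.05 and dotted lines between role groups. The filled points lie on both sides of 0 in both panels, 9 higher and 6 lower on the left, and 21 higher and 5 lower on the right.

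The second comparison, Dapa against Ctrl, showed more matrix genes apart. Laminin chains and other basement membrane genes (Lama5, Lamb2, Lamc1, Nid2, Agrn, Col18a1), contractile genes (Acta2, Tagln) and the proteases and inhibitors Mmp2, Mmp14 and Timp2 were higher in Dapa mice, and Timp3, Lama1, Col16a1, Col19a1 and Col6a6 were lower. Of 60 genes tested, 26 passed q under 0.05 (edgeR), which is 43.3%, against 29.1% of the 14647 genes tested. Of these, 21 were higher (background 14.2%) and 5 were lower (background 14.9%). The median log2 fold change was 0.34, beside 0.01 over all genes tested. The groups did not overlap for 13 of the 60 genes, against 14.5% of all genes, and 10 passed the rule with a fold above 2, against 7.18%.

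Of these 26 genes, 15 kept their call whichever mouse was left out. The count was 15 without Ctrl 1, Ctrl 2 or Dapa 10, 17 without Dapa 11, and 21 to 29 without each other mouse, while the share of all genes called was 21.8% to 32.3%. With a term for the 7 libraries, 25 matrix genes passed (background 30.0%), while Mmp2, Loxl1 and Col20a1 lost their calls (q up to 0.053). Those 3 genes also lost them without the filter on low counts (q up to 0.068), and Mmp2, Loxl1, Col6a2 and Dcn in the fit of all 3 groups (q up to 0.15). On the 2 Ctrl and 3 Dapa mice outside them 1 gene passed, Col12a1 (background 1.84%). Dapa and Case were both compared with the same Ctrl mice, so that the 2 comparisons are not independent of each other.

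**Figure D2:**
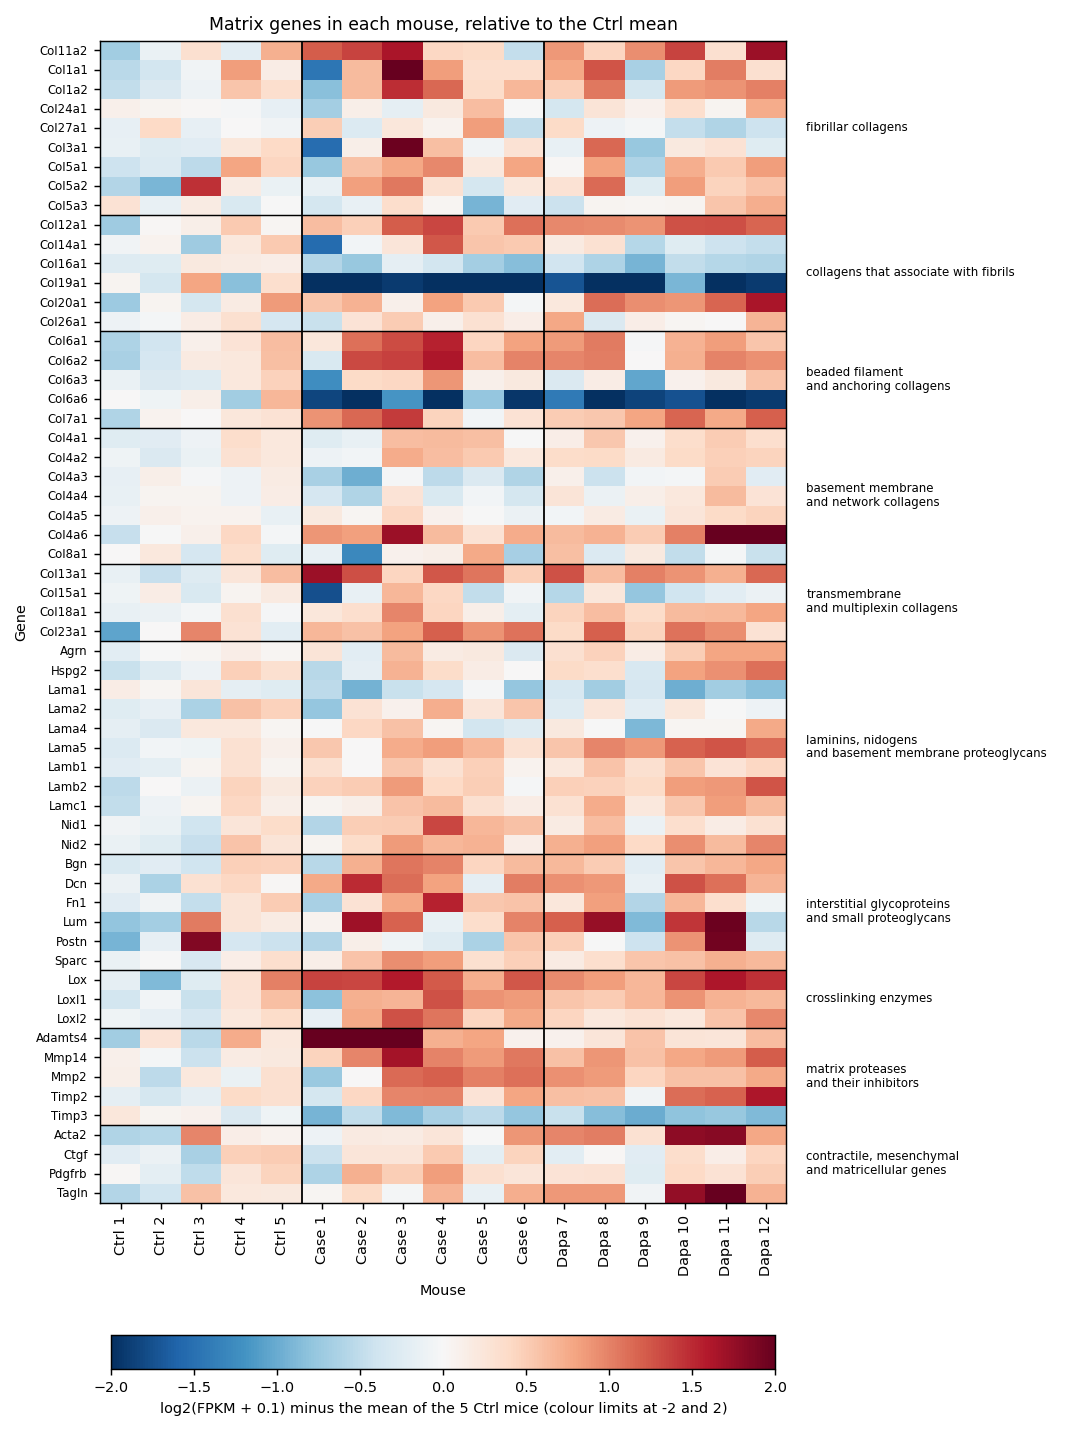
Each row is a tested matrix gene and each column a mouse, and the colour gives log2(FPKM + 0.1) minus the mean of the 5 Ctrl mice, with genes ordered by role. Col19a1 and Col6a6 are blue in nearly every db/db mouse, Timp3 is blue in all 12, and the columns of Case 1 and Dapa 9 are paler or bluer than those beside them for the interstitial genes.

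Among collagen IV chains, Col4a3 and Col4a6 differed between Case and Ctrl and the other 4 did not pass the test. Col4a3, which encodes the alpha3 chain of the glomerular basement membrane, read 33, 40.2, 36.3, 34.2 and 41.3 FPKM in the 5 Ctrl mice. It ranged from 18.6 to 36.1 FPKM with a median of 24.9 in Case mice and from 27.4 to 52.6 FPKM with a median of 35.7 in Dapa mice. Case 3 alone reached the Ctrl range, and the other 5 Case mice lay below every Ctrl mouse, while the Dapa mice spanned the Ctrl values. The log2 fold change was -0.57 ± 0.14, q = 0.019 in Case (SE after the ± sign, here and below), and -0.11 ± 0.14, q = 0.58 in Dapa mice against Ctrl. Col4a4, its partner chain, read 27.2, 31.2, 31.2, 28.3 and 33.4 FPKM in Ctrl mice, 19.9 to 36.4 (median 24.1) in Case mice and 28 to 46.8 (median 35.7) in Dapa mice, with log2 fold changes of -0.29 ± 0.13, q = 0.15 in Case and 0.14 ± 0.11, q = 0.37 in Dapa mice against Ctrl. The ratio of Col4a3 to Col4a4 FPKM in a mouse was 1.16 to 1.29 in Ctrl, 0.934 to 1.05 in Case and 0.856 to 1.13 in Dapa mice, so that no db/db mouse reached a Ctrl value. The ratio of Col4a3 to Col4a1 was 1.08 to 1.90 in Ctrl, 0.660 to 1.13 in Case and 0.759 to 1.49 in Dapa mice, and these ranges overlapped.

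Col4a6, which encodes the alpha6 chain of Bowman's capsule and some tubules, was low and had the largest fold within the family. It read 0.195, 0.304, 0.333, 0.439 and 0.293 FPKM in Ctrl mice, 0.393 to 1.23 (median 0.594) in Case mice and 0.476 to 2.1 (median 0.636) in Dapa mice. Every Dapa mouse lay above every Ctrl mouse, and Dapa 11 and Dapa 12 stood far above the other 4. Markers of parietal epithelium and urothelium (8 genes) summed to 14.0 to 44.6 FPKM in Ctrl, 19.8 to 36.6 in Case and 27.3 to 62.7 in Dapa mice. Dapa 11 was highest, but Dapa 12 summed to 38.4 FPKM, below Dapa 10 (41.7 FPKM, with Col4a6 at 0.713). Ctrl 3 had the highest Ctrl sum (44.6 FPKM) with Col4a6 at 0.333. The part of these markers in the Col4a6 values was not tested. Of these markers, 1 of 4 tested was higher in Case and 1 of 7 in Dapa mice, where all 7 had a log2 fold change above 0, against 6.09% and 14.2% of all genes higher, so that the Dapa count is at the background. The log2 fold change of Col4a6 was 1.00 ± 0.28, q = 0.032 in Case and 1.61 ± 0.42, q = 0.013 in Dapa mice against Ctrl. In Case the call was lost when Ctrl 1, 2, 3 or 5 was left out (q up to 0.077). The neighbour of Col4a6, Col4a5 (the alpha5 chain), read 6.52, 7.59, 7.42, 7.39 and 6.37 FPKM in Ctrl mice, 6.48 to 9.43 (median 7.34) in Case mice and 6.43 to 9.58 (median 8.1) in Dapa mice. The ranges overlapped (log2 fold changes 0.02, q = 0.9 in Case and 0.08, q = 0.6 in Dapa mice). The widely used chains Col4a1 and Col4a2 did not pass the test either. Col4a1 read 20.9, 21.2, 23.2, 31.8 and 28.7 FPKM in Ctrl mice, 20.9 to 38.7 (median 31.1) in Case mice and 26.4 to 36.1 (median 31.5) in Dapa mice (log2 fold changes 0.19 ± 0.18, q = 0.52 and 0.21 ± 0.11, q = 0.18 against Ctrl). Col4a2 read 17.4, 15, 16.7, 22.9 and 21.2 FPKM in Ctrl mice, 17.2 to 30.9 (median 24) in Case mice and 20.9 to 25.6 (median 24.1) in Dapa mice (log2 fold changes 0.27 ± 0.16, q = 0.29 and 0.26 ± 0.10, q = 0.061). For both chains, Case 3, 4 and 5 lay above all Ctrl mice, and Case 1 and 2 lay close to the lower Ctrl values.

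**Figure D3:**
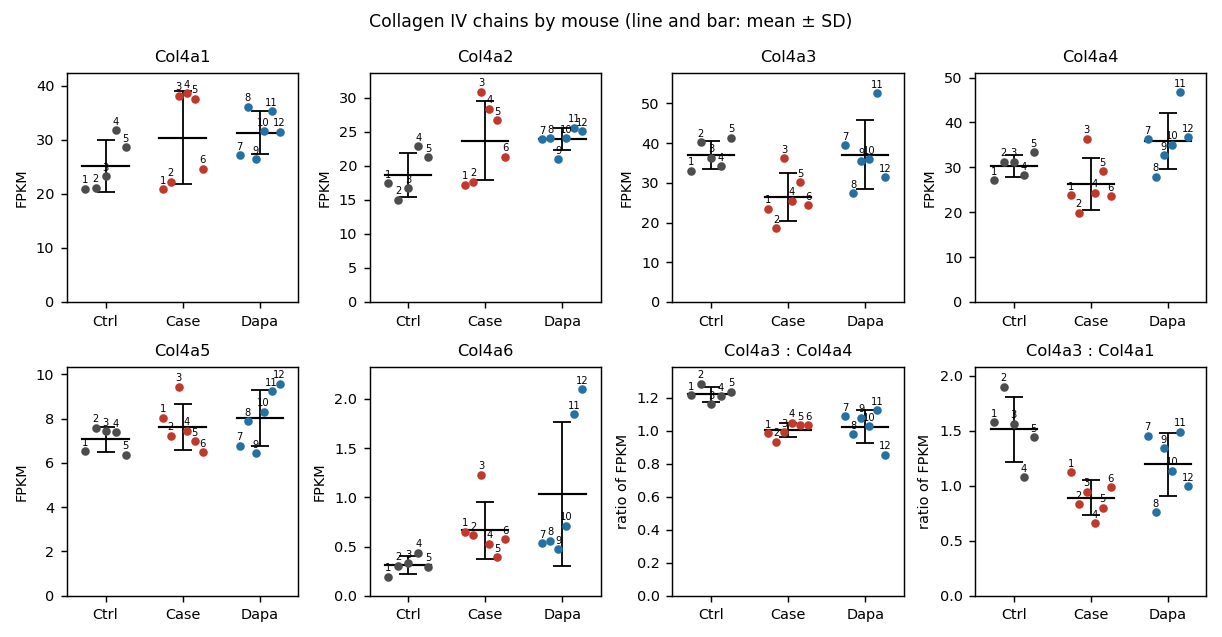
FPKM of the 6 collagen IV chains and 2 ratios of FPKM (y axes) for each Ctrl, Case and Dapa mouse (points, with the mouse number), with mean ± SD. Col4a3 is lower in 5 of 6 Case mice, Col4a6 is higher in all 6 Dapa mice, and the ratio of Col4a3 to Col4a4 separates the Ctrl mice (1.16 to 1.29) from all db/db mice.

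The 6 collagen IV genes lie in 3 head-to-head pairs, and members of a pair start on opposite strands close to each other. In the GENCODE annotation of GRCm38, Col4a4 and Col4a3 are separated by 71 bases on chromosome 1, Col4a6 and Col4a5 by 1308 bases on chromosome X, and the annotated starts of Col4a1 and Col4a2 overlap by 22 bases on chromosome 8. In 2 of these pairs, 1 gene was called in Case mice and its partner was not, and the bases between the starts of the first pair and upstream of both starts of the second pair are shown. The collagen VI chains Col6a1 and Col6a2, which lie in tandem on chromosome 10 and are described further on, are added. The sequences are RefSeq's (GRCm38.p6), read 5′ to 3′ on the strand of the named gene and trimmed to bases outside annotated transcripts. Capitals mark a GC box (GGGCGG, or CCGCCC on the other strand), a CCAAT box (CCAAT or ATTGG) or a TATA box (TATAAA or TTTATA).
Col4a4, chr1:82586850-82586920, minus strand, the whole interval up to Col4a3: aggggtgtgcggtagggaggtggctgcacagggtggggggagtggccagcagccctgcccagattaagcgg
Col4a6, chrX:141474077-141474326, minus strand: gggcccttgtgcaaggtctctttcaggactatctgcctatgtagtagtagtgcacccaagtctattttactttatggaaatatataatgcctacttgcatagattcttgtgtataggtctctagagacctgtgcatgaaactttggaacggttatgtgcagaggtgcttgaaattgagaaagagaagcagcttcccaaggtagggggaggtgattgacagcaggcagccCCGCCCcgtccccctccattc
Col4a5, chrX:141475169-141475384, plus strand: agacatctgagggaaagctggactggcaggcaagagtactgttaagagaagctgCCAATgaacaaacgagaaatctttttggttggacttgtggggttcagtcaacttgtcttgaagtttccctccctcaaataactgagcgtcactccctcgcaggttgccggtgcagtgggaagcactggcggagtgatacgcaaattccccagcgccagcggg
Col6a1, chr10:76726169-76726294, minus strand: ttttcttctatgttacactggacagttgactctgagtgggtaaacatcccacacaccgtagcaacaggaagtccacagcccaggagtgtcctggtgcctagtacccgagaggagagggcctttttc
Col6a2, chr10:76623631-76623880, minus strand: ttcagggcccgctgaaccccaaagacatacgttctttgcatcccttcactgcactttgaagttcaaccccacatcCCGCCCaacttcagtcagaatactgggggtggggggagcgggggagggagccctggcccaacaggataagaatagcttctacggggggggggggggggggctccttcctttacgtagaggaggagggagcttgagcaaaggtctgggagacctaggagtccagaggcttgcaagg
The shared interval of Col4a4 and Col4a3 was 69% G and C and held none of the 3 motifs. The Col4a6 stretch held 1 GC box and was 47.6% G and C, and the Col4a5 stretch held 1 CCAAT box and was 52.3% G and C. Col6a2 held 1 GC box and Col6a1 held none of the motifs. Over the 250 bases upstream of all 32851 starts in the promoter table, 32.7% held a GC box, 33.8% a CCAAT box and 12.4% a TATA box. Over the last 71 bases, the shares were 20.7%, 13.3% and 4.41%. The motifs do not overlap one another, and a match describes letters only. Of the 74 matrix genes, 50 had an entry in that table.

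Laminins, the second network of the basement membrane, showed an opposite course for 2 alpha chains. Lama5, the alpha5 chain of the mature glomerular and tubular basement membrane, read 9.44, 11, 10.8, 14.2 and 12.3 FPKM in Ctrl mice, 11.5 to 20.4 (median 17.4) in Case mice and 16.8 to 27.4 (median 23.9) in Dapa mice. All 6 Dapa mice and 4 of 6 Case mice lay above the highest Ctrl mouse. Against Ctrl, the log2 fold change was 0.45 ± 0.14, q = 0.0496 in Case and 0.90 ± 0.12, q = 0.00053 in Dapa mice, and in Case the call was lost when Ctrl 1, 2, 3 or 5 or Case 1, 3, 4, 5 or 6 was left out (q up to 0.12). Lama1, the alpha1 chain, occurs in the embryonic kidney and in places of the adult kidney that include the mesangium. It read 4.17, 3.86, 4.46, 3.33 and 3.18 FPKM in Ctrl mice, 1.91 to 3.71 (median 2.67) in Case mice and 1.87 to 2.99 (median 2.28) in Dapa mice. All 6 Dapa mice and 5 of 6 Case mice lay below the lowest Ctrl mouse, Case 5 being the exception. On the log2 scale, the difference from Ctrl was -0.59 ± 0.16, q = 0.031 in Case and -0.77 ± 0.15, q = 0.0028 in Dapa mice, and in Case the call was lost when Ctrl 1, 2 or 3 or Case 2 or 6 was left out (q up to 0.086). Within a mouse, the ratio of Lama5 to Lama1 FPKM was 2.26 to 4.27 in Ctrl, 4.89 to 7.02 in Case and 5.63 to 14.0 in Dapa mice, without overlap of either db/db group with Ctrl. Since Lama5 was called higher and Lama1 lower in both groups, this ratio restates those calls and is no separate result.

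The beta2 and gamma1 chains that join Lama5 in the glomerular laminin were also higher in Dapa mice. Lamb2, the beta2 chain, read 3.77, 5.5, 5.05, 7.52 and 6.29 FPKM in Ctrl mice, 5.4 to 9.99 (median 7.66) in Case mice and 7.17 to 13.3 (median 8.77) in Dapa mice. This gave a log2 fold change of 0.62 ± 0.18, q = 0.019 in Dapa mice and 0.36 ± 0.15, q = 0.13 in Case mice, and 5 of 6 Dapa mice lay above all Ctrl mice. Lamc1, the gamma1 chain shared by most laminins, read 2.75, 3.63, 4.03, 5.21 and 4.23 FPKM in Ctrl mice, 4.05 to 6.05 (median 4.61) in Case mice and 4.54 to 7.05 (median 5.91) in Dapa mice. The fitted log2 fold change against Ctrl was 0.44 ± 0.14, q = 0.031 in Dapa and 0.23 ± 0.14, q = 0.32 in Case mice, and the call in Dapa mice was lost when Ctrl 1, 2 or 5 or Dapa 8, 10 or 11 was left out (q up to 0.065). Lamb1, the beta1 chain, just missed the threshold in Dapa mice (log2 fold change 0.28 ± 0.10, q = 0.0505). Lama2 and Lama4, the alpha chains of muscle and vessels, did not pass the test in either comparison (log2 fold changes -0.18 to 0.15).

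Of the proteins that join the laminin and collagen IV networks, Nid2 (nidogen-2) read 4.15, 3.84, 3.29, 6.78 and 5.5 FPKM in Ctrl mice, 4.76 to 8.3 (median 6.57) in Case mice and 6.03 to 9.06 (median 7.82) in Dapa mice. It was higher in Dapa mice (log2 fold change 0.62 ± 0.16, q = 0.014), with 1 of 6 Dapa mice inside the Ctrl range, and did not pass in Case mice (0.37 ± 0.18, q = 0.2). Nid1 (nidogen-1) did not pass in either, at 0.51 ± 0.26, q = 0.21 in Case and 0.13 ± 0.14, q = 0.52 in Dapa mice. Agrn encodes agrin, a heparan sulphate proteoglycan of the glomerular basement membrane, and read 8.69, 9.99, 10.3, 11 and 10.3 FPKM in Ctrl mice, 8.18 to 15.7 (median 11.4) in Case mice and 11.1 to 17.5 (median 14) in Dapa mice. Every Dapa mouse lay above every Ctrl mouse, by a narrow margin, and the log2 fold change was 0.41 ± 0.11, q = 0.013 in Dapa and 0.07 ± 0.13, q = 0.76 in Case mice. Hspg2 (perlecan) did not pass (0.02 ± 0.21, q = 0.96 in Case, 0.48 ± 0.23, q = 0.13 in Dapa mice). Col18a1, the heparan sulphate-bearing collagen from which endostatin is cut, read 8.55, 8.66, 9.23, 11.8 and 9.25 FPKM in Ctrl mice, 8.23 to 18.7 (median 11.5) in Case mice and 12.2 to 16.4 (median 14.6) in Dapa mice. It was higher in all 6 Dapa mice than in any Ctrl mouse (log2 fold change 0.48 ± 0.09, q = 0.0027) and did not pass in Case mice (0.26 ± 0.15, q = 0.27). Over the 11 laminin, nidogen and proteoglycan genes, 1 was higher and 1 lower in Case mice, and 5 were higher and 1 lower in Dapa mice, beside 6.09% higher and 6.91% lower of all genes in Case and 14.2% and 14.9% in Dapa mice. Beside these genes, the podocyte marker list (8 genes) summed to 64.6 to 82.2 FPKM in Ctrl, 70.5 to 111 in Case and 80.4 to 105 in Dapa mice, with 2 of 8 markers higher in Case and 3 of 8 in Dapa mice (Nphs1 0.59 and 0.67 on the log2 scale) and none lower. The endothelial list (10 genes) summed to 75.7 to 131, 96.4 to 143 and 94.8 to 178 FPKM, with 1 of 10 higher in each. Mesangial markers (5 genes, Itga8, Gata3, Serpine2, Tbx18 and Ren1) summed to 30.0 to 97.4 FPKM (median 60.9) in Ctrl, 56.4 to 173 (median 94.5) in Case and 36.9 to 113 (median 61.0) in Dapa mice. Of 4 tested, 1 was higher in Case and 3 in Dapa mice (Serpine2, 1.31 and 1.15 on the log2 scale). In Dapa mice the sum and the calls thus differed, and neither measures the amount of mesangium. Markers of the loop of Henle, distal tubule and collecting duct (4 genes) summed to 572 to 1659, 988 to 2891 and 1350 to 2142 FPKM, with 1 of 4 higher in Case and 2 of 4 in Dapa mice (Aqp2, 0.78 and 1.44). Of 8 proximal tubule markers, 2 were lower in Case and 6 in Dapa mice, and none was higher. The part of these cells in the laminin and collagen IV values was not tested.

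The fibrillar collagens did not pass the test in any comparison (9 of 11 tested), where 13.0% of all genes did in Case and 29.1% in Dapa mice against Ctrl and 0% between Dapa and Case mice. Col1a1 and Col1a2 encode the chains of type I collagen, and the Case mice spread widely for both. Col1a1 read 0.542, 0.624, 0.79, 1.57 and 0.933 FPKM in Ctrl mice, 0.243 to 3.74 (median 1.22) in Case mice and 0.5 to 2.14 (median 1.32) in Dapa mice. Case 1 lay below and Case 3 far above all Ctrl mice, and the log2 fold change was 0.67 ± 0.48, q = 0.38 in Case and 0.50 ± 0.33, q = 0.27 in Dapa mice. Col1a2 read 0.969, 1.12, 1.3, 2.1 and 1.78 FPKM in Ctrl mice, 0.737 to 4.08 (median 2.26) in Case mice and 1.08 to 3.01 (median 2.66) in Dapa mice, with 4 of 6 mice of each db/db group above all Ctrl mice (0.64 ± 0.33, q = 0.22 in Case, 0.61 ± 0.24, q = 0.076 in Dapa mice). Col3a1, type III collagen, read 1.5, 1.39, 1.42, 1.97 and 2.25 FPKM in Ctrl mice, 0.517 to 6.8 (median 1.94) in Case mice and 0.945 to 3.81 (median 1.72) in Dapa mice. The highest Case mouse had 13.2 times the FPKM of the lowest, compared with 1.63 times among Ctrl mice, and the log2 fold change was 0.49 ± 0.44, q = 0.5 in Case and 0.08 ± 0.28, q = 0.85 in Dapa mice. The macrophage list (10 genes) moved with Case 3, summing to 208 FPKM there, 28.1 to 57.1 in the other Case mice, 28.5 to 49.9 in Ctrl and 26.5 to 66.2 in Dapa mice, and none of its 10 genes passed the test in either comparison. The fibroblast and pericyte list (9 genes) was lowest among Case mice in Case 1 (33.7 FPKM, the others 46.6 to 67.2), against 26.9 to 42.3 in Ctrl and 44.8 to 58.7 in Dapa mice, with 1 of 8 tested genes higher in Case (Rgs5, 0.81 on the log2 scale) and 2 of 8 in Dapa mice (Rgs5 and Pdgfra), beside 6.09% and 14.2% of all genes. Whether these cells account for the collagen values was not tested. The minor fibrillar chains Col5a1, Col5a2, Col5a3, Col11a2, Col24a1 and Col27a1 had log2 fold changes of -0.32 to 1.10 in Case and -0.29 to 1.23 in Dapa mice, with the smallest q at 0.051 for Col11a2 in Dapa mice.

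**Figure D4:**
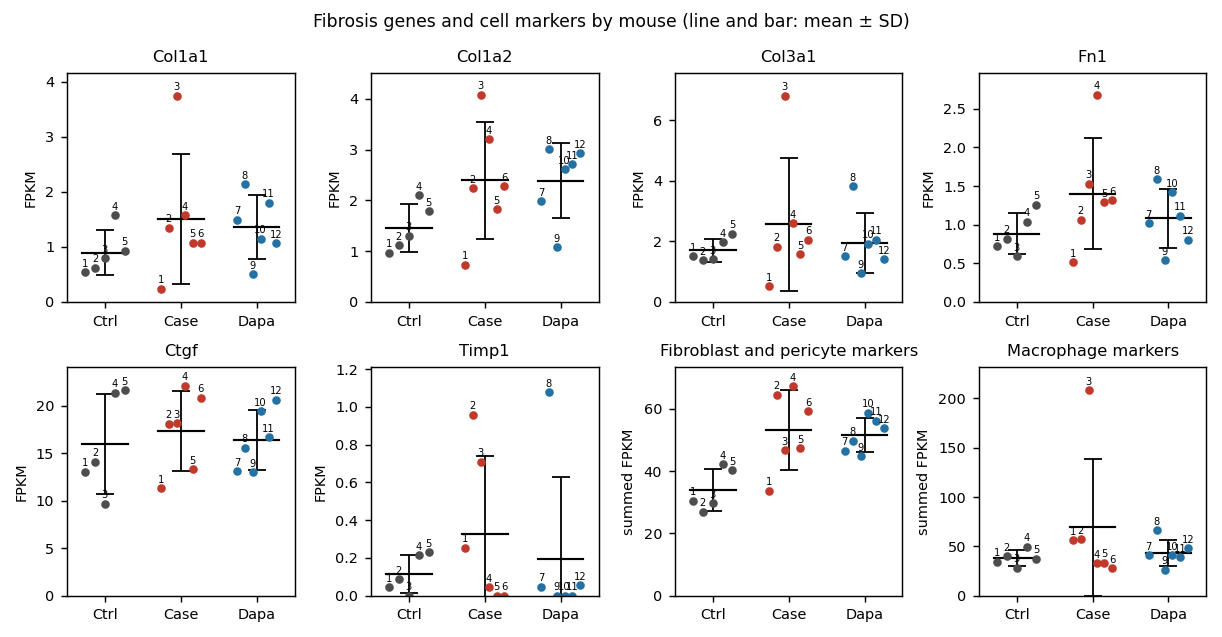
FPKM of 6 genes used as readouts of fibrosis, and summed FPKM of fibroblast and pericyte and of macrophage markers (y axes), for each Ctrl, Case and Dapa mouse (points, with the mouse number), with mean ± SD. The groups overlap in all 6 gene panels, Case 3 is the highest Case mouse for Col1a1, Col1a2, Col3a1 and macrophage markers, and Timp1 is above 0.5 FPKM in Case 2, Case 3 and Dapa 8 only.

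Collagens that sit on fibrils moved in both directions. Col12a1, which coats type I fibrils, read 0.212, 0.42, 0.455, 0.639 and 0.427 FPKM in Ctrl mice, 0.616 to 1.19 (median 0.843) in Case mice and 0.856 to 1.15 (median 0.973) in Dapa mice. All 6 Dapa and 4 of 6 Case mice lay above the highest Ctrl mouse, and the log2 fold change was 0.94 ± 0.25, q = 0.028 in Case and 1.11 ± 0.20, q = 0.002 in Dapa mice. In Case the call was lost when Ctrl 1, 2, 3 or 5 or Case 3, 4 or 6 was left out (q up to 0.066). Col16a1 was lower, at 1.42, 1.43, 1.97, 1.93 and 1.89 FPKM in Ctrl mice against 0.901 to 1.5 (median 1.07) in Case mice and 0.852 to 1.29 (median 1.1) in Dapa mice. Every Dapa mouse and 5 of 6 Case mice lay below every Ctrl mouse (log2 fold change -0.69 ± 0.14, q = 0.0079 in Case and -0.75 ± 0.13, q = 0.0013 in Dapa mice). Col19a1, present at a low level, showed the largest fold of the matrix genes in Case mice, with 0.448, 0.311, 0.813, 0.196 and 0.567 FPKM in Ctrl mice, 0 to 0.0391 (median 0.00828) in Case mice and 0 to 0.18 (median 0.0314) in Dapa mice. In counts, this was 57, 40, 107, 26 and 70 in Ctrl mice and 0 to 5 in Case mice, and no db/db mouse reached the lowest Ctrl mouse. The log2 fold change was -5.25 ± 0.56, q = 0.00022 in Case and -3.30 ± 0.70, q = 0.0047 in Dapa mice. Col20a1 was called in Dapa mice only, at 0.11, 0.259, 0.173, 0.291 and 0.525 FPKM in Ctrl mice and 0.3 to 0.977 (median 0.606) in Dapa mice, with 0.239 to 0.506 (median 0.403) in Case mice (log2 fold change 1.08 ± 0.38, q = 0.046 in Dapa, 0.41 ± 0.36, q = 0.48 in Case mice), and that call was lost when Ctrl 1, 2, 3 or 4 or Dapa 8, 9, 10, 11 or 12 was left out (q up to 0.1). Col14a1 and Col26a1 did not pass in either comparison.

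Collagen VI forms beaded filaments around cells, from Col6a1, Col6a2 and one more chain. Col6a1 read 1.48, 1.75, 2.5, 2.83 and 3.59 FPKM in Ctrl mice, 2.71 to 6.91 (median 4.6) in Case mice and 2.27 to 4.88 (median 4.02) in Dapa mice. Its log2 fold change was 0.86 ± 0.26, q = 0.0481 in Case and 0.55 ± 0.22, q = 0.077 in Dapa mice, and the call in Case was lost when Ctrl 1, 2, 3 or 4 or Case 2, 3, 4 or 6 was left out (q up to 0.11). Col6a2 read 0.38, 0.498, 0.755, 0.771 and 1.04 FPKM in Ctrl mice, 0.508 to 2.22 (median 1.59) in Case mice and 0.661 to 1.43 (median 1.35) in Dapa mice, and 5 of 6 mice of each db/db group lay above all Ctrl mice. Against Ctrl, the log2 fold change was 1.02 ± 0.33, q = 0.062 in Case and 0.72 ± 0.25, q = 0.043 in Dapa mice, so that the call fell on different sides of the threshold for 2 chains of 1 protein, and in Dapa mice it was lost when Ctrl 1, 2, 3 or 4 or Dapa 7, 8, 10, 11 or 12 was left out (q up to 0.095). The usual additional chain Col6a3 did not pass (0.16 ± 0.30, q = 0.77 and -0.12 ± 0.25, q = 0.76). The alternative chain Col6a6 was lower, with 0.307, 0.28, 0.337, 0.15 and 0.539 FPKM in Ctrl mice, 0 to 0.136 (median 0.00961) in Case mice and 0 to 0.0525 (median 0.01) in Dapa mice. No db/db mouse reached the lowest Ctrl mouse, and counts were 51, 47, 58, 26 and 87 in Ctrl mice. On the log2 scale, the difference from Ctrl was -3.12 ± 0.76, q = 0.019 in Case and -4.40 ± 0.61, q = 0.00053 in Dapa mice, and in Case the call was lost when Ctrl 5 was left out (q up to 0.052). Of its 50-base stretches, 3.54% also occur in transcripts of other genes. Col7a1, the collagen of anchoring fibrils, read 0.187, 0.359, 0.34, 0.412 and 0.436 FPKM in Ctrl mice, 0.323 to 1.05 (median 0.605) in Case mice and 0.522 to 0.897 (median 0.649) in Dapa mice, higher in all 6 Dapa mice than in any Ctrl mouse (log2 fold change 0.89 ± 0.23, q = 0.011, and 0.81 ± 0.29, q = 0.085 in Case mice).

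Among transmembrane collagens, Col13a1, which sits at cell adhesions, read 0.287, 0.21, 0.257, 0.408 and 0.559 FPKM in Ctrl mice, 0.476 to 1.3 (median 0.856) in Case mice and 0.558 to 0.94 (median 0.73) in Dapa mice. Case 1 was the highest mouse of all, although that library was the lowest Case library for many other collagens. This gave a log2 fold change of 1.18 ± 0.32, q = 0.029 in Case and 0.99 ± 0.26, q = 0.014 in Dapa mice, and in Case the call was lost when Ctrl 1, 2 or 3 or Case 1, 2 or 4 was left out (q up to 0.078). Col23a1 (0.77 ± 0.33, q = 0.14 in Case, 0.60 ± 0.35, q = 0.22 in Dapa mice) and the multiplexin Col15a1 (-0.15 ± 0.33, q = 0.8 and -0.42 ± 0.18, q = 0.09) did not pass the test. Col8a1, a network-forming collagen of vessels, did not pass either (-0.16 ± 0.29, q = 0.75 and -0.15 ± 0.21, q = 0.63).

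Of the interstitial glycoproteins and small proteoglycans, Sparc and Dcn passed in at least 1 comparison. Sparc, a collagen-binding matricellular protein, read 14.4, 15.8, 12.6, 17.4 and 20.1 FPKM in Ctrl mice, 17.2 to 30.2 (median 22.8) in Case mice and 17.9 to 26 (median 23.7) in Dapa mice. The fitted log2 fold change against Ctrl was 0.47 ± 0.14, q = 0.0487 in Case and 0.40 ± 0.12, q = 0.027 in Dapa mice. The call in Case was lost when Ctrl 1, 2, 3 or 4 or Case 2, 3, 4 or 6 was left out (q up to 0.12), and in Dapa mice when Ctrl 1, 2 or 3 or Dapa 10 or 11 was left out (q up to 0.063). Dcn encodes decorin, a proteoglycan that binds collagen fibrils and TGF-beta, and read 8.36, 5.79, 11.2, 12.1 and 9.23 FPKM in Ctrl mice, 7.97 to 25.6 (median 17.2) in Case mice and 8.13 to 22.1 (median 16.8) in Dapa mice. In each db/db group, 5 of 6 mice lay above all Ctrl mice. The log2 fold change was 0.80 ± 0.25, q = 0.0511 in Case, which narrowly missed the threshold, and 0.69 ± 0.22, q = 0.034 in Dapa mice, where the call was lost when Ctrl 1, 2 or 5 or Dapa 8, 10 or 11 was left out (q up to 0.075). Fn1 (fibronectin) read 0.722, 0.816, 0.59, 1.04 and 1.26 FPKM in Ctrl mice, 0.513 to 2.68 (median 1.3) in Case mice and 0.539 to 1.59 (median 1.07) in Dapa mice. Case 4 was the highest and Case 1 the lowest of all mice, and the log2 fold change was 0.59 ± 0.32, q = 0.25 in Case and 0.18 ± 0.25, q = 0.61 in Dapa mice. Bgn (biglycan), Lum (lumican) and Postn (periostin) did not pass, with log2 fold changes of 0.52, 0.69 and -0.88 in Case and 0.37, 1.01 and 0.29 in Dapa mice.

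Lysyl oxidases crosslink collagen and elastin. Lox read 0.306, 0.147, 0.288, 0.46 and 0.817 FPKM in Ctrl mice, 0.655 to 1.27 (median 1.02) in Case mice and 0.628 to 1.31 (median 0.918) in Dapa mice. In Case mice 5 of 6, and in Dapa mice 3 of 6, lay above all Ctrl mice. Its log2 fold change was 1.24 ± 0.33, q = 0.029 in Case and 1.11 ± 0.35, q = 0.03 in Dapa mice. The call in Case was lost when Ctrl 1 or 3 or Case 2 or 3 was left out (q up to 0.078), and in Dapa mice when Ctrl 1, 2 or 3 or Dapa 10, 11 or 12 was left out (q up to 0.069). Loxl1 read 1.07, 1.35, 1.02, 1.74 and 2.19 FPKM in Ctrl mice, 0.758 to 3.54 (median 2.51) in Case mice and 2.05 to 2.73 (median 2.29) in Dapa mice. It passed in Dapa mice only (0.55 ± 0.19, q = 0.0482, and 0.63 ± 0.32, q = 0.21 in Case mice), and the call was lost when Ctrl 1, 2, 3 or 4 or Dapa 8, 9, 10, 11 or 12 was left out (q up to 0.11). Loxl2 did not pass (0.71 ± 0.23, q = 0.062 and 0.38 ± 0.18, q = 0.14). Of the 50-base stretches of Loxl2, 45% also occur in transcripts of other genes, so that its reads may be split.

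Proteases and their inhibitors held the most abundant and some of the most stable differences. Timp3, the matrix-bound inhibitor of metalloproteases and of ADAM17, read 366, 323, 333, 257 and 295 FPKM in Ctrl mice, 164 to 222 (median 192) in Case mice and 156 to 229 (median 176) in Dapa mice. All 12 db/db mice lay below all 5 Ctrl mice. Against Ctrl, the log2 fold change was -0.79 ± 0.14, q = 0.0033 in Case and -0.90 ± 0.12, q = 0.00053 in Dapa mice, that is, 1.73-fold and 1.87-fold lower. The proximal tubule list summed to 2133 to 2399 FPKM in Ctrl, 1399 to 2563 in Case and 1563 to 2101 in Dapa mice. Of its 8 markers, 2 were lower in Case (Lrp2, -0.98 on the log2 scale) and 6 in Dapa mice, and none was higher. The shares lower over all genes were 6.91% and 14.9%. The Dapa sums lay below all Ctrl sums, while the Case sums spanned the Ctrl range, where Timp3 did not overlap. Case 4 had the highest sum of all mice (2563 FPKM) with Timp3 at 200 FPKM. The part of the proximal tubule list in the Timp3 values was not tested. A list of 6 liver markers, like Timp3, separated all db/db mice from the Ctrl mice. It summed to 1106 to 1440 FPKM in Ctrl, 455 to 866 in Case and 256 to 824 in Dapa mice. Most of that sum was Cyp2e1 (mean 1228 FPKM in Ctrl, 557 in Case and 446 in Dapa mice), which the kidney also expresses in mice, and it was the one marker of 5 tested that passed (log2 fold changes -1.22 and -1.57), while the mean of Alb was 9.84, 10.1 and 11.9 FPKM. Its part in the Timp3 values was not tested either. Without Timp3, the matrix genes took 0.225% to 0.294% of counts in Ctrl, 0.243% to 0.381% in Case and 0.279% to 0.389% in Dapa mice. Timp2, which inhibits MMPs and helps to activate pro-MMP2, read 5.69, 5.02, 5.63, 8.46 and 8.05 FPKM in Ctrl mice, 5 to 12.8 (median 9.89) in Case mice and 6.1 to 19.9 (median 12) in Dapa mice. On the log2 scale, the difference from Ctrl was 0.81 ± 0.25, q = 0.026 in Dapa and 0.49 ± 0.22, q = 0.17 in Case mice, and the call in Dapa mice was lost when Ctrl 1, 2 or 3 or Dapa 10 or 11 was left out (q up to 0.062). Timp1, the inhibitor induced in injured kidneys, had too few counts for the filter, and without the filter it did not pass (q = 0.46 in Case and 0.72 in Dapa mice). It read 0.0445, 0.0881, 0, 0.214 and 0.229 FPKM in Ctrl mice, 0 to 0.96 (median 0.15) in Case mice and 0 to 1.08 (median 0.0243) in Dapa mice, and only Case 2, Case 3 and Dapa 8 were above 0.5 FPKM.

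Mmp14, a membrane-bound collagenase, read 1.12, 1, 0.743, 1.17 and 1.2 FPKM in Ctrl mice, 1.45 to 3.48 (median 2.14) in Case mice and 1.6 to 2.52 (median 1.9) in Dapa mice. All 12 db/db mice lay above all 5 Ctrl mice, and the log2 fold change was 1.01 ± 0.20, q = 0.0069 in Case and 0.77 ± 0.16, q = 0.004 in Dapa mice. Mmp2, the gelatinase that Mmp14 activates, read 0.71, 0.421, 0.765, 0.584 and 0.836 FPKM in Ctrl mice, 0.347 to 1.62 (median 1.45) in Case mice and 0.908 to 1.31 (median 1.09) in Dapa mice. All 6 Dapa mice lay above all Ctrl mice (log2 fold change 0.63 ± 0.21, q = 0.042), and in Case mice the range was wider, with Case 1 below the Ctrl mice (0.75 ± 0.37, q = 0.2). The call in Dapa mice was lost when Ctrl 1, 2 or 4 or Dapa 7, 8, 10, 11 or 12 was left out (q up to 0.087). Adamts4, a protease that cuts aggrecan and versican, read 0.072, 0.237, 0.0928, 0.369 and 0.223 FPKM in Ctrl mice and 1.07, 1.05, 1.76, 0.355, 0.383 and 0.197 FPKM in Case 1 to 6, with 0.197 to 0.329 (median 0.232) FPKM in Dapa mice. Case 1, 2 and 3 stood far above all other mice, and Case 4, 5 and 6 lay close to the Ctrl and Dapa mice. This gave a log2 fold change of 1.91 ± 0.56, q = 0.042 in Case and 0.27 ± 0.38, q = 0.63 in Dapa mice, and in Case the call was lost when Ctrl 1, 2, 3 or 5 or Case 1, 2 or 3 was left out (q up to 0.1). The same 3 Case mice had the highest macrophage marker sums of the Case group (56.1, 57.1 and 208 FPKM). They also had the highest sums of markers of the loop of Henle, distal tubule and collecting duct (2459, 1734 and 2891 FPKM, the other Case mice 988 to 1217) and the lowest sums of proximal tubule markers (1517, 1668 and 1399 FPKM, the others 1979 to 2563). The part of these cells in the Adamts4 values was not tested.

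Among contractile and mesenchymal genes, Acta2 (smooth muscle actin) and Tagln (transgelin), both carried by smooth muscle and by myofibroblasts, were higher in Dapa mice. Acta2 read 7.75, 7.94, 23.5, 12.9 and 12.4 FPKM in Ctrl mice, 11.1 to 22 (median 13.4) in Case mice and 14.6 to 42 (median 23.9) in Dapa mice. Dapa 10 and Dapa 11 were the 2 highest mice, both among the 7 libraries named above, and 3 of 6 Dapa mice lay above all Ctrl mice. The fitted log2 fold change against Ctrl was 0.99 ± 0.32, q = 0.034 in Dapa and 0.08 ± 0.28, q = 0.89 in Case mice, and the call in Dapa mice was lost when Ctrl 1, 2, 4 or 5 or Dapa 10 or 11 was left out (q up to 0.079). Tagln read 6.02, 6.88, 13.8, 10.6 and 10.5 FPKM in Ctrl mice, 8.2 to 15.2 (median 10.7) in Case mice and 8.66 to 36.6 (median 16.7) in Dapa mice, with log2 fold changes of 1.01 ± 0.33, q = 0.034 in Dapa and 0.19 ± 0.24, q = 0.64 in Case mice, and the call in Dapa mice was lost when Ctrl 1, 2, 4 or 5 or Dapa 10 or 11 was left out (q up to 0.079). The smooth muscle list (8 genes without Acta2 and Tagln) summed to 23.7 to 43.2 FPKM in Ctrl, 30.9 to 40.3 in Case and 31.2 to 53.9 in Dapa mice, with Dapa 10 and 11 highest at 52.4 and 53.9, and 1 of 8 (Smtn, 0.42 on the log2 scale) was higher in Dapa and 0 of 7 in Case mice, no more than the 14.2% and 6.09% of all genes. The parietal epithelium and urothelium list was also highest in Dapa 11 (62.7 FPKM) and Dapa 10 (41.7 FPKM) among Dapa mice, and in Ctrl 3 (44.6 FPKM, the others 14.0 to 19.9) among Ctrl mice, the Ctrl mouse with the highest Acta2 and Tagln. The part of either list in the Acta2 and Tagln values was not tested. Pdgfrb, the PDGF receptor of pericytes and mesangial cells, did not pass (0.29 ± 0.23, q = 0.44 and 0.13 ± 0.16, q = 0.57). Ctgf, a target and partner of TGF-beta, read 13.1, 14.1, 9.71, 21.4 and 21.6 FPKM in Ctrl mice, 11.3 to 22.1 (median 18.1) in Case mice and 13 to 20.6 (median 16.1) in Dapa mice, and the ranges lay on one another (0.05 ± 0.22, q = 0.91 and -0.06 ± 0.19, q = 0.83).

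**Figure D5:**
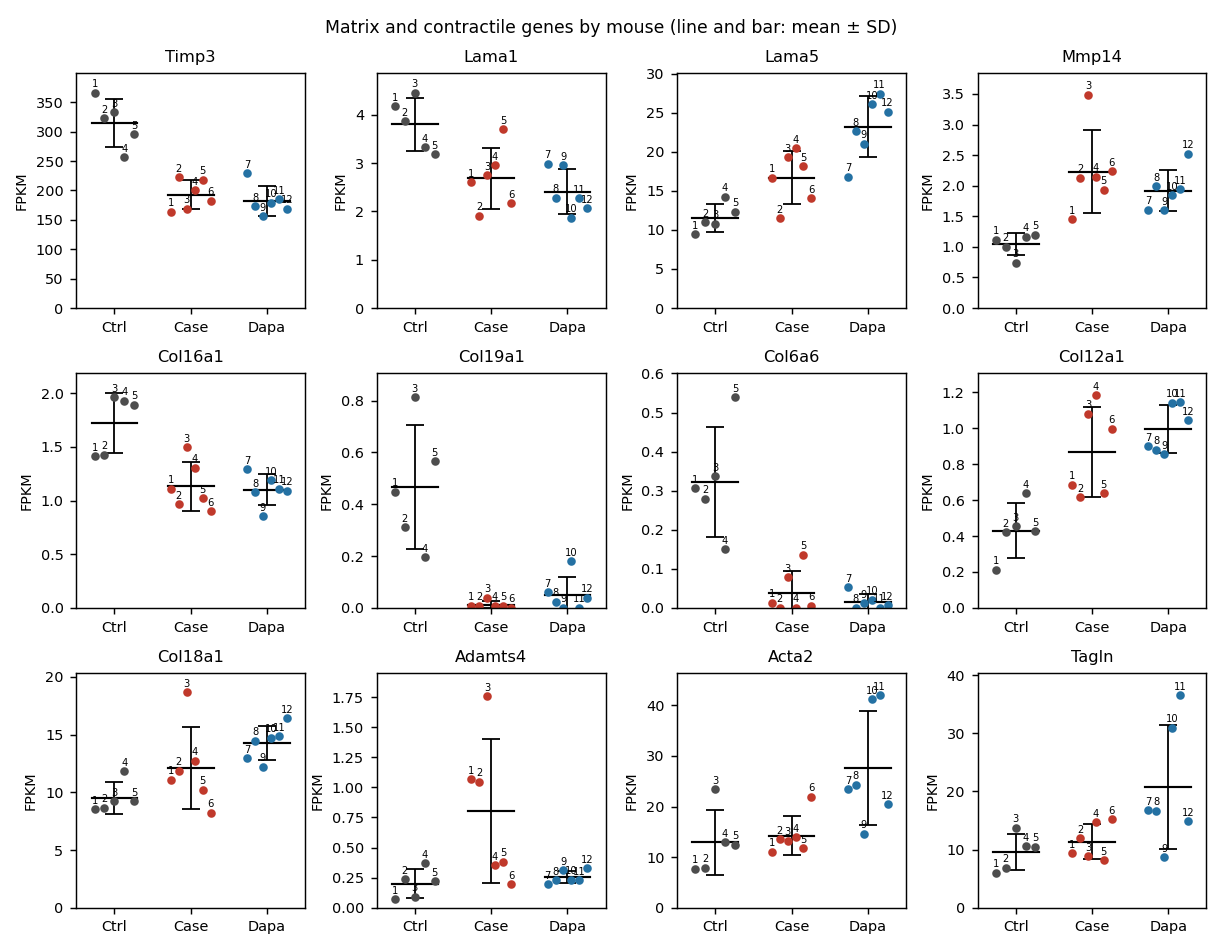
FPKM (y axes) of 12 matrix and contractile genes in each Ctrl, Case and Dapa mouse (points, with the mouse number), with mean ± SD. Timp3 and Mmp14 separate all db/db mice from the Ctrl mice, Adamts4 is high in Case 1, 2 and 3 alone, and Acta2 and Tagln are highest in Dapa 10 and 11.

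The third comparison asked what dapagliflozin changed within db/db mice. No matrix gene passed q under 0.05 with edgeR (0 of 58 tested, against 0% of the 14573 genes tested), and 8 had an unadjusted p under 0.05, which is 13.8%, against 12.9% of all genes. The median log2 fold change was -0.03, beside -0.01 over all genes. Adamts4 had the smallest p, with a log2 fold change of -1.64 ± 0.45, q = 0.21, and DESeq2 (q = 0.028) and the edgeR exact test (q = 0.049) called it, tools that called 1.44% and 0.885% of all genes. Acta2 stood at 0.91 ± 0.25, q = 0.22, and DESeq2 called it (q = 0.037). Limma called neither gene. The other 6 were Tagln (0.82 ± 0.30, q = 0.29), Col4a3 (0.47 ± 0.16, q = 0.27), Col4a4 (0.44 ± 0.14, q = 0.25), Lama5 (0.46 ± 0.14, q = 0.25), Agrn (0.35 ± 0.14, q = 0.33) and Col20a1 (0.67 ± 0.28, q = 0.35), all with higher values in Dapa mice. For Lama5 and Col20a1, 5 of 6 Dapa mice lay above all Case mice. For Timp3 (-0.11 ± 0.12, q = 0.73), Mmp14 (-0.24 ± 0.17, q = 0.58), Lama1 (-0.17 ± 0.17, q = 0.69) and Col16a1 (-0.06 ± 0.13, q = 0.88), no difference between Dapa and Case mice passed the test. The interstitial genes Col1a1, Col1a2, Col3a1 and Fn1 had log2 fold changes of -0.16, -0.03, -0.40 and -0.40 with SE of 0.32 to 0.46, and the Dapa range overlapped the Case range for each.

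Genes that build or receive the matrix were followed through 5 lists, whose counts stand beside the same background of 6.09% higher and 6.91% lower in Case and 14.2% and 14.9% in Dapa mice. The list counts come from the main edgeR fits only, and their stability when a mouse was left out was not examined. Of 29 tested genes for collagen biosynthesis and assembly, 2 were higher and 2 lower in Case mice, with a median log2 fold change of -0.02, and these counts are near the background. The prolyl hydroxylase P4ha1 (-0.74) and Crtap (-0.62), which work on collagen chains in the endoplasmic reticulum, were lower, and P3h4 (0.89) was higher. In Dapa mice 6 of 30 were higher and 4 lower, with P4ha1 at -0.92 and Crtap at -0.69. Of 25 further genes for matrix degradation and its inhibitors, 2 were higher and 2 lower in Case mice. Among them were the brush border metalloproteases Mep1a (-1.57) and Mep1b (-2.27) and, higher, Mmp19 (1.64). In Dapa mice, 0 were higher and 5 lower of 24. Of 8 proximal tubule markers, 2 were lower in Case and 6 in Dapa mice, and their part in the Mep1a and Mep1b values was not tested.

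Of 43 tested genes for other matrix glycoproteins and proteoglycans, 9 were higher and 2 lower in Case mice, with a median log2 fold change of 0.45 beside 0.03 over all genes, against a background of 6.09% higher and 6.91% lower. Osteopontin (Spp1, 2.52) was among the higher genes, and Vwa1 (-1.44) and Fras1 (-0.72), both of basement membranes, were lower. In Dapa mice 14 of 43 were higher and 5 lower, with elastin (Eln) at 1.78, against a background of 14.2% and 14.9%. Of 29 matrix receptors, 0 were higher and 2 lower in Case mice, Itgb8 (-0.62) and Sdc2 (-0.66), and 3 were higher and 4 lower in Dapa mice. Of 34 genes of TGF-beta signalling and profibrotic growth factors, 0 were higher and 2 lower in Case mice, Id2 (-0.69) and Srf (-0.41), with a median of 0.02, and 5 were higher and 5 lower in Dapa mice, with Pdgfb at -0.63 and Pdgfd at -0.82, and the Dapa counts are near the background. Tgfb1 and Bmp4 were not analysed here. Between Dapa and Case mice, no gene of the 5 lists passed q under 0.05 with edgeR, and 3 of 30, 4 of 26, 8 of 44, 3 of 29 and 3 of 34 genes, in the order of the lists above, had an unadjusted p under 0.05, beside 12.9% of all genes.

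Of the 74 matrix genes, 14 had too few counts for edgeR's filter on low counts in each comparison, namely Timp1 and 13 collagen chains of cartilage, skin and other tissues (Col2a1, Col6a4, Col6a5, Col8a2, Col9a1, Col9a2, Col9a3, Col10a1, Col11a1, Col17a1, Col22a1, Col25a1 and Col28a1). None of these 13 chains exceeded 0.153 FPKM in any mouse. In the fits without the filter, Col6a4 passed in Dapa against Ctrl (log2 fold change -2.93, q = 0.045, with DESeq2 q = 0.021), from 2 to 16 counts in Ctrl mice and at most 5 in Dapa mice, and none of the other 13 genes passed in any comparison. Col6a6 and Col19a1 were also removed by the filter between Dapa and Case mice, and without it they did not pass (q = 0.6 and 0.47).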

How the data were processed

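RNA of whole kidneys from 5 Ctrl, 6 Case and 6 Dapa mice was sequenced with a strand-specific kit after oligo(dT) enrichment, 1 library per mouse. Reads were mapped to mm10 by the authors using HISAT2, and the deposited table gives per library the Stringtie count of every gene with its FPKM. Each deposited FPKM equalled the count per gene length and per library total, with deviations of at most 0.0882%. Of 22561 genes, 3 with entries over 2 lines (Sirt1, Tgfb1 and Bmp4) were left out because their FPKM did not follow their counts in 7 libraries (factors 0.725 to 1.03).

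Groups were those of the labels. For Case against Ctrl, for Dapa against Ctrl and for Dapa against Case, counts were compared with edgeR 4.0.16 in R 4.3.3 (filterByExpr, TMM, quasi-likelihood test), each fitted on its own 2 groups. The q values were adjusted by Benjamini-Hochberg over all genes tested, and the SE was taken from the fold change and its F statistic. A second rule added a fold above 2 between mean FPKM, as in the study's methods. DESeq2 1.42.0, limma 3.58.1 on log2(FPKM + 1) and log2(FPKM + 0.1), other filters and scaling, a term for the 7 libraries, and leaving out each mouse were tried. On simulated counts for Case against Ctrl (14422 genes), 96% of genes changed 4-fold and 69% of those changed 2-fold were recovered, with 8 false calls. For Dapa against Case, 95.9% and 71% were recovered, also with 8 false calls. Genes were drawn independently, without shifts of whole libraries. The simulation therefore does not cover such shifts, and it did not try folds under 2. Figures were drawn with Python 3.11.15 and matplotlib 3.10.9.

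Genes named in the text were those with q under 0.05 in any comparison, a fixed set of fibrosis and basement membrane genes, up to 3 further genes of each role group by smallest p, and of each pathway list up to 3 called in Case and 2 in Dapa mice. Marker genes, Col6a4 and other genes given only within a range or for 1 library were named after their values were seen. One result that the rule would name is not reported here. The matrix genes and the lists were chosen with earlier results of these data known. Shared sequence was the share of 50-base stretches of a gene's GENCODE vM21 transcripts found in transcripts of other genes.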

Additional observations from a re-analysis of the deposited data

Results flagged for a closer look

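In 39 matrix genes, each in 3 groups (117 sets of values), 8 sets held a mouse that lay further from its group than Dixon's 95% limit allows. Chance gives about 1 in 20 such sets. Case 3 was the highest Case mouse for Col3a1 at 6.80 FPKM (next 2.60), for Col4a6 at 1.23 FPKM (next 0.649) and for Col19a1 at 0.0391 FPKM (next 0.00897, from 5 counts against 1). Case 6 was the highest Case mouse for Acta2 at 22.0 FPKM (next 14.0). Dapa 8 was the highest Dapa mouse for Timp1 at 1.08 FPKM, with the other 5 at 0.0554 or less. Dapa 10 was the highest Dapa mouse for Col19a1 at 0.180 FPKM (next 0.0600). Dapa 9 was the lowest Dapa mouse for Col4a2 at 20.9 FPKM (next 23.9). Ctrl 4 was the highest Ctrl mouse for Col18a1 at 11.8 FPKM (next 9.25).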

How the results depend on the processing

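The 2 counts of matrix genes called, 15 in Case and 26 in Dapa mice against Ctrl, kept within 1.5 times under DESeq2, the edgeR exact test, another scaling, 2 other filters, a fit of all 3 groups and limma on 2 log scales. With a term for the 7 libraries whose 2-line entries did not follow their counts, 7 were called in Case mice, and 4 rather than 8 by the rule with a fold above 2. Without those 7 libraries, 1 was called in Case and 1 in Dapa mice, and 1 each by the fold rule, in fits of 7 and 5 mice, an alternative chosen after the data were seen. With at least 10 counts in every sample, 5 passed the fold rule in Case mice, since Col6a6, Col19a1 and Adamts4 could then not be tested. Mice of the same number in Ctrl and Case did not deviate together (correlations -0.0566 to -0.0144), and a fit with the replicate number as a block called 5 genes, 2 by the fold rule. Leaving out 1 mouse gave 6 to 19 calls in Case and 15 to 29 in Dapa mice against Ctrl, and 3 to 11 and 4 to 12 by the fold rule. Between Dapa and Case mice, DESeq2 called 2 genes and the edgeR exact test 1, beside 1.44% and 0.885% of all genes, with 1 each by the fold rule (0.604% and 0.487% of all genes). No called matrix gene changed direction under any alternative run, and the genes of the pathway and marker lists were not followed through the alternatives. Of the 870 values of called matrix genes under the alternatives, 656 had q under 0.05 and 214 did not. The cause of these shifts was not tested. Genes under about 10 counts per mouse carry a large counting error.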
